A study of Mus musculus with 4 samples.

Results

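Lipin 1 and the enzymes around it make the glycerolipids of the liver. The members described here are 35 genes, chosen by symbol for their place in the pathway: the 3 lipins, the enzymes that build phosphatidate and diacylglycerol, and those that turn them into triacylglycerol, phosphatidylcholine, phosphatidylethanolamine, phosphatidylserine and cardiolipin. A probe set was taken for a member where the platform annotation gave that gene as its only symbol. This gave 62 probe sets for 28 members, out of 22626 probe sets and 12393 genes on the array. Gpat3, Agpat2, Agpat4, Etnk2, Cds1, Pisd and Crls1 had no such probe set and were not analysed here. Of the 28, 24 had at least 1 probe set bright enough to test (46 probe sets in all), and Lpin3, Agpat5, Mogat1 and Mogat2 were too dim.

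The study used liver RNA from adult male C57BL6 mice that had been injected with adenovirus and were killed on day 6. The control virus carried green fluorescent protein (GFP) and the other virus the beta form of mouse lipin 1 (Ad-lipin), so every mouse had received an adenovirus. The sources used here do not give the vector's promoter, the dose, the route or the share of liver cells that took up virus. There were 4 Affymetrix arrays, 2 per group, and Ad-lipin replicate 2 alone was labelled polyA RNA where the rest were labelled total RNA. Nothing says that the replicates came from separate animals, so p-values and errors reflect only how far these arrays scatter, which can be technical scatter.

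Glycerolipid synthesis starts from glycerol 3-phosphate, to which fatty acids are joined in turn to give phosphatidate. Lipins remove the phosphate of phosphatidate at the endoplasmic reticulum, which yields diacylglycerol, the shared precursor of triacylglycerol, phosphatidylcholine and phosphatidylethanolamine. Phosphatidate can instead be activated to CDP-diacylglycerol, from which phosphatidylinositol and cardiolipin are made. In hepatocytes these routes feed lipid droplets, membranes and very low density lipoproteins, and lipin 1 also enters the nucleus, where it acts with PPAR alpha and PGC-1 alpha.

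Each value is a MAS5 signal, the summary of a probe set's fluorescence in arbitrary units. Every array had a trimmed mean signal of 1501. For RNA quality, beta-actin probes at the 3' end were compared with those at the 5' end: their ratio was 1.77 in GFP replicate 1, 4.22 in GFP replicate 2, 2.85 in Ad-lipin replicate 1 and 2.86 in Ad-lipin replicate 2. GFP replicate 2 also resembled the others least (mean correlation 0.731), where the remaining arrays had mean correlations between 0.781 and 0.793. All 10 hepatocyte markers, albumin among them, were bright enough to test, and their summed signal was 2002155 and 4354829 in GFP against 2790208 and 3368959 in Ad-lipin. Adipocyte markers, relevant because fat tissue makes the same lipids, had probe sets for 3 of 5 genes and summed to 973 and 1906 in GFP against 714 and 1712 in Ad-lipin. By gene, 8 of the 10 hepatocyte markers lay above 0 (median log2 difference 0.20), and in 3 of them, Apob, Hnf4a and Asgr1, both Ad-lipin arrays exceeded both GFP arrays. Hnf4a, a hepatocyte transcription factor, differed by 0.95 ± 0.37 (1.93-fold) and Asgr1, a receptor of the hepatocyte surface, by 0.77 ± 0.35 (1.71-fold). Both had an unadjusted p under 0.05 with limma. Without GFP replicate 2 Hnf4a stood at 0.37 and Asgr1 at 0.95. The sum over these markers is set by the brightest few, such as Alb and Ttr, and overlapped between groups. Of the T, B and NK cell markers 3 were tested and 0 lay above 0 (median -1.20), and both Ad-lipin arrays lay below both GFP arrays for Cd79a (-2.06 ± 1.11) and Cd8a (-1.20 ± 1.14), while the sums were 4168 and 4683 in GFP against 3135 and 4179 in Ad-lipin. Of 4 stellate cell markers tested, 1 lay above 0 (median -0.78). Both Ad-lipin arrays lay below for 2, Col1a2 and Acta2, and above for 1, Col3a1. Their sums were 8204 and 10520 in GFP against 6858 and 6839 in Ad-lipin. Both exocrine pancreas markers tested had both Ad-lipin arrays above, with sums of 4829 and 4795 in GFP against 4865 and 5891 in Ad-lipin. Kupffer cell markers (median -0.051 over 7 tested; sums 49252 and 28308 in GFP, 44606 and 30936 in Ad-lipin) and endothelial markers (median -0.18 over 5 tested; sums 9489 and 16001 in GFP, 10661 and 12890 in Ad-lipin) had overlapping sums, as did the cholangiocyte markers (726 and 2409 in GFP, 1116 and 1754 in Ad-lipin), of which 1 was tested. Among the Kupffer cell markers 1 had both Ad-lipin arrays above, Clec4f, at 210 and 1245 in GFP and 1413 and 2136 in Ad-lipin (1.77 ± 0.84). Over all genes tested, both Ad-lipin arrays lay above both GFP arrays in 17.3% and below in 16.0%. No marker passed at a limma adjusted p under 0.05, and the part of cell makeup in the results below was not tested. In RNA from whole liver, fewer cells of a type and less RNA per cell cannot be told apart.

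The delivered transcript and the liver's own Lpin1 transcript cannot be told apart by these signals. The 250 bases before the RefSeq start of Lpin1 and of Lpin2 (build GRCm38.p6) are shown because these were the lipins measured well enough to test. Lpin1 lies at chr12:16610967-16611216 on the minus strand and Lpin2 at chr17:71183282-71183531 on the plus strand, the first of 3 starts listed for Lpin2. Both are written 5' to 3'. Capitals mark matches, on either strand, to CACGTG (the E-box core), GGGCGG (the GC box), CCAAT (the box bound by NF-Y) and AGGTCA (a hexamer bound by nuclear receptors).
Lpin1: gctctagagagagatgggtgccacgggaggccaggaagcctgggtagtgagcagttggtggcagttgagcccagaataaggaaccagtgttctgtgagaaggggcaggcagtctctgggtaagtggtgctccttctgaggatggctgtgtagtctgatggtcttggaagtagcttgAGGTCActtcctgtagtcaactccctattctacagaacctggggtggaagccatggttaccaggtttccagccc
Lpin2: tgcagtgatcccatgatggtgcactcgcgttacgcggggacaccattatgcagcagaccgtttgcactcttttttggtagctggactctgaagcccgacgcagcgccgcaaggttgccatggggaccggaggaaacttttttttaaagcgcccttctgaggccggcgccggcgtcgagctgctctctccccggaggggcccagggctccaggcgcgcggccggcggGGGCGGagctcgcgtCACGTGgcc

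The Lpin1 window held a single match, AGGTCA, and the Lpin2 window held 1 GGGCGG and 1 CACGTG. Of 27025 genes with such a window, 15.8% had AGGTCA, 35.4% GGGCGG, 6.86% CACGTG and 37.5% CCAAT in at least 1 of their listed windows. Windows were listed for 26 of the members, and 17 of these (65.4%) held GGGCGG, 2 CACGTG, 3 AGGTCA and 11 (42.3%) CCAAT. The 26 members had 39 windows, and the number of windows per gene was not matched between members and all genes. The matches above are letter matches in a short window and say nothing about binding.

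Lpin1, the gene carried by the virus, was read by 2 probe sets, and on neither did both Ad-lipin arrays exceed both GFP arrays. The brighter (1426516_a_at) read 7082 in GFP replicate 1, 4632 in GFP replicate 2, 3854 in Ad-lipin replicate 1 and 11087 in Ad-lipin replicate 2. The other (1418288_at) read 2730, 1430, 2261 and 6719 in the same order. On both, Ad-lipin replicate 2, the array labelled polyA RNA, was the highest of the 4, and Ad-lipin replicate 1 lay below GFP replicate 1. The log2 differences between groups were 0.19 ± 0.45 and 0.98 ± 0.53 (SE, n = 2 per group), with limma adjusted p-values of 0.977 and 0.962. The 95% interval of the brighter probe set, -0.77 to 1.15, spans a fall to 0.586 of the control signal and a rise to 2.22 times it. Without Ad-lipin replicate 2 the brighter probe set stood at -0.57 and the dimmer at 0.19. Without Ad-lipin replicate 1 they stood at 0.95 and 1.77, and without GFP replicate 2 the brighter stood at -0.12. The array signals therefore do not show a raised Lpin1 level on the library labelled Ad-lipin replicate 1, and every direction below rests on the labels. The probes could not be placed on the delivered cDNA, and probes outside it would check nothing.

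Lpin2 encodes another phosphatidate phosphatase that is abundant in liver. Its brightest probe set (1452836_at) read 5276 and 5404 in the GFP arrays, 5050 in Ad-lipin replicate 1 and 9394 in Ad-lipin replicate 2. A second (1452837_at) read 3309, 1060, 1344 and 4286 in that order. Ad-lipin replicate 2 was again highest on both, and on the first of them the other arrays lay close together. The third (1460290_at) ran the other way, at 2288 and 1169 in GFP against 808 and 1060 in Ad-lipin, with both Ad-lipin arrays below both GFP arrays. The log2 differences were 0.37 ± 0.37, 0.36 ± 0.63 and -0.82 ± 0.62, and limma adjusted p-values ran from 0.962 to 0.965. The first was -0.080 without Ad-lipin replicate 2. Lpin3, the third lipin, is expressed mainly outside the liver, and its probe set read 73.6 and 395 in GFP and 39.5 and 29.4 in Ad-lipin. On 3 of the 4 arrays it lay under 119.5, the level to which low signals were raised, so it was not tested.

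**Figure D1:**
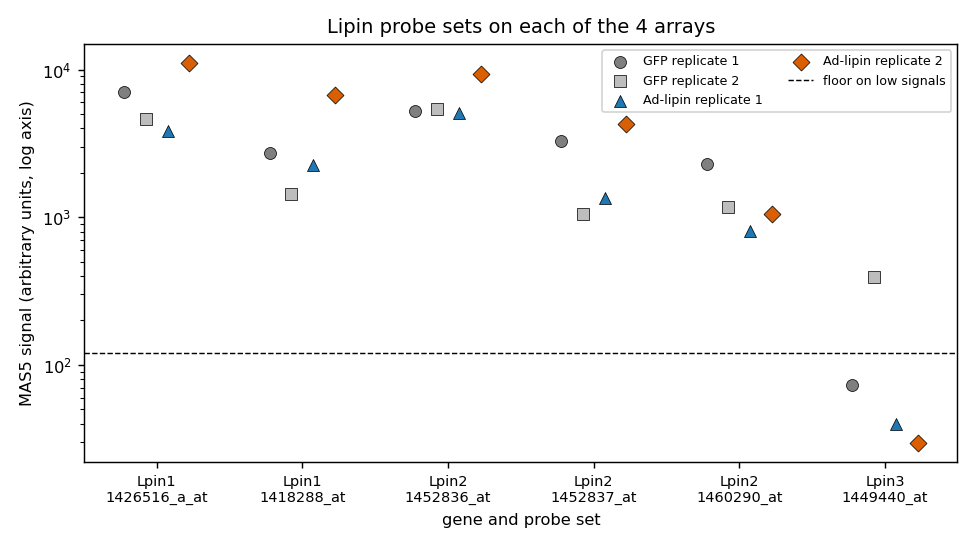
MAS5 signal (vertical log axis, arbitrary units) of each lipin probe set on the 4 arrays, with the dashed line at the floor of 119.5. Ad-lipin replicate 2 was the highest array on both Lpin1 probe sets and on 2 of the 3 Lpin2 probe sets, while Ad-lipin replicate 1 read 3854 on the brighter Lpin1 probe set, below both GFP arrays.

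Over all members, no difference passed the threshold. With limma, 0 of the 46 tested probe sets had an adjusted p under 0.05, and the background over all 13576 probe sets tested was also 0%. At an unadjusted p under 0.05 there were 3 member probe sets, where the background was 4.39%, and the lowest adjusted p of a member was 0.962. A gene is represented below by its brightest tested probe set unless another is named. On that basis 14 of the 24 members lay above 0 and 10 below, with a median log2 difference of 0.07, against 0.0015 over all 8493 genes tested. In 3 members both Ad-lipin arrays exceeded both GFP arrays (background 17.3%) and in 2 both lay below (background 16.0%), which are shares of 12.5% and 8.33%. The groups overlapped in the other 19. With 2 arrays against 2, an exact two-sided permutation test of a single gene cannot go below p = 0.333.

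The members were brighter than most genes on the array. Their median geometric mean signal was 3258, compared with 1160 for all genes tested, and their median absolute log2 difference was 0.21, against 0.45 for all genes. The part of brightness in that gap was not tested. Replicates of a member differed by a median of 0.49 in GFP and 0.45 in Ad-lipin on the log2 scale, and in 20 of the 24 members the larger of these replicate gaps exceeded the difference between groups. The median half-width of the unadjusted 95% interval was 0.97, or 1.95-fold, and this is not the limit at the adjusted threshold: Pcyt2 at 2.26-fold, Ptdss2 at 2.51-fold and a Gpat4 probe set at 6.93-fold did not pass it. For 5 of the 24 members the interval lay within 2-fold in both directions.

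**Figure D2:**
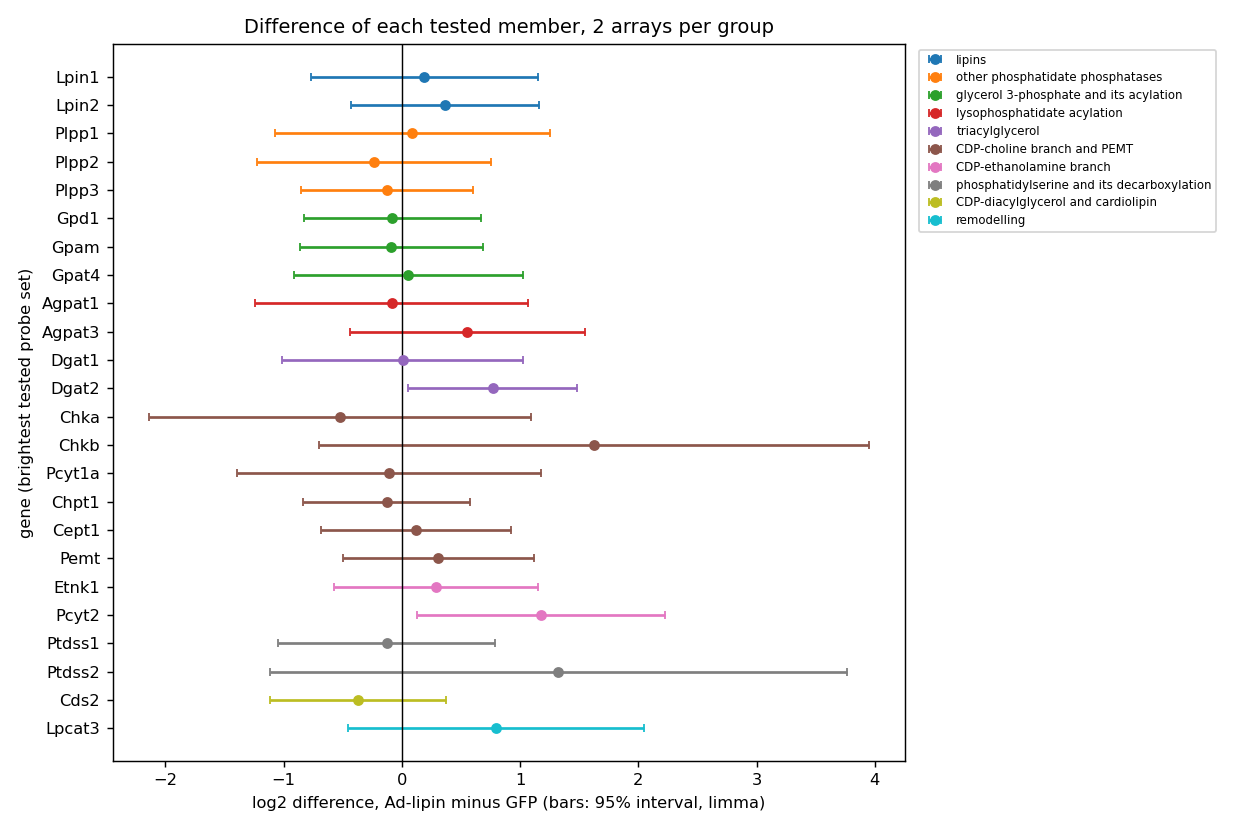
Log2 difference, Ad-lipin minus GFP, of the 24 tested members (points; brightest tested probe set) with limma's 95% interval (bars), coloured by pathway branch. The intervals of 22 members include 0, and those of Dgat2 and Pcyt2 begin just above it, before any adjustment for the number of probe sets.

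At the first steps of the pathway no difference passed the threshold. Gpd1, which reduces dihydroxyacetone phosphate to glycerol 3-phosphate, read 7526 and 5341 in GFP and 5344 and 6735 in Ad-lipin, a log2 difference of -0.080 ± 0.35. Its 2 other tested probe sets gave -0.039 and -0.50, and on the latter both Ad-lipin arrays lay below both GFP arrays. Gpam is the mitochondrial acyltransferase that adds the first fatty acid, the committed step in liver. It read 26199 and 14451 in GFP and 15035 and 22239 in Ad-lipin, so that the groups spanned nearly the same range, with a difference of -0.090 ± 0.36. The 95% interval, -0.86 to 0.68, leaves room for changes of up to 1.61-fold upward and down to 0.55 of control. A dimmer Gpam probe set gave -0.77 ± 1.39.

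Gpat4, the acyltransferase of the endoplasmic reticulum, gave a different answer on each of its probe sets. The brighter read 2578 and 1844 in GFP and 2126 and 2418 in Ad-lipin, a log2 difference of 0.056 ± 0.45. The dimmer (1422841_at) read 558 and 2642 in GFP and 67.1 and 257 in Ad-lipin, with both Ad-lipin arrays lower and a difference of -2.79 ± 1.29 (limma adjusted p = 0.962). It was the largest difference of any tested member probe set, and 1 of its 4 signals lay under the floor. It is named here after its value was seen. The gene-level answer for Gpat4 therefore depends on which probe set is read.

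The second acylation, of lysophosphatidate, was measured through Agpat1 and Agpat3. Agpat1 read 1727 and 1321 in GFP and 1319 and 1532 in Ad-lipin, a log2 difference of -0.087 ± 0.54, and its second probe set gave -0.24. Agpat3 read 1454 and 2541 in GFP and 2517 and 3161 in Ad-lipin, a difference of 0.55 ± 0.46, and GFP replicate 1 stood alone as the low array. Without GFP replicate 1 the Agpat3 difference was 0.15. Agpat5 was dim, at 44.1 and 160 in GFP and 254 and 194 in Ad-lipin, and was not tested.

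Besides the lipins, the membrane phosphatases of the Plpp family can remove the phosphate of phosphatidate, mostly on the outer face of cells. Plpp3 read 10755 and 10601 in GFP and 7598 and 12638 in Ad-lipin, with the GFP arrays together and between the Ad-lipin arrays, a log2 difference of -0.12 ± 0.34. Plpp2 read 3774 and 2263 in GFP and 1826 and 3367 in Ad-lipin, a difference of -0.24 ± 0.46. Plpp1 read 1281 and 1481 in GFP and 1553 and 1381 in Ad-lipin, a difference of 0.089 ± 0.55. On the brightest probe sets of Lpin1, Lpin2, Plpp2 and Plpp3, Ad-lipin replicate 1 was the lowest of the 4 arrays. It was lowest for 6 members in all and for 22.2% of all genes tested. On Lpin1 1418288_at, Lpin2 1452837_at and Plpp3 1448908_at the lowest was GFP replicate 2.

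On the way to triacylglycerol, Dgat2 stood highest in the Ad-lipin arrays. Dgat2 and Dgat1 are unrelated enzymes that both join a fatty acid to diacylglycerol, and Dgat2 uses fatty acids newly made in the liver. Dgat2 (1422678_at) read 14158 in GFP replicate 1, 22287 in GFP replicate 2, 28606 in Ad-lipin replicate 1 and 31944 in Ad-lipin replicate 2. Its second probe set read 6247 and 6338 in GFP and 8046 and 7489 in Ad-lipin. On both probe sets the Ad-lipin arrays exceeded the GFP arrays without overlap. The first averaged 18223 ± 5748 in GFP and 30275 ± 2360 in Ad-lipin (SD, n = 2 each). Its log2 difference was 0.77 ± 0.34, or 1.70-fold (limma adjusted p = 0.962), and that of the other probe set was 0.30 ± 0.33. Leaving out any single array moved the first between 0.44 (without GFP replicate 1) and 1.09 (without GFP replicate 2). The 10 hepatocyte markers ran from -0.089 (Serpina1c) to 0.95 (Hnf4a), with a median of 0.20, and the part of hepatocyte share in the Dgat2 difference was not tested. The Dgat2 difference did not pass the threshold. Its sign held whichever array was left out, which must be so wherever the groups do not overlap.

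Dgat1 read 2365 and 1848 in GFP and 2674 and 1653 in Ad-lipin, with the Ad-lipin arrays outside the GFP pair on either side and a log2 difference of 0.0083 ± 0.48. Mogat1 and Mogat2 acylate monoacylglycerol, chiefly in the intestine for Mogat2. Mogat1 read 492 and 206 in GFP and 492 and 351 in Ad-lipin. Mogat2 read 125 and 625 in GFP and 1449 and 159 in Ad-lipin, with the low and high arrays of both groups overlapping, and neither gene was tested.

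In the CDP-choline route to phosphatidylcholine, choline is phosphorylated by Chka or Chkb, activated by Pcyt1a and joined to diacylglycerol by Chpt1 or Cept1. The 6 genes of this branch, Pemt included, had a median log2 difference of 0.0058 and ran from -0.52 to 1.62. Pcyt1a, which sets the pace of the route, read 1191 and 1249 in GFP and 1143 and 1121 in Ad-lipin, with both Ad-lipin arrays below both GFP arrays by a small margin (log2 difference -0.11 ± 0.60). A second Pcyt1a probe set read 1173 and 1270 in GFP and 72.0 and 945 in Ad-lipin (-1.86 ± 1.06). Its signal in Ad-lipin replicate 1 was under the floor, and without that array the difference was -0.37. The third gave -0.35 and was 0.13 without Ad-lipin replicate 2. With all arrays the 3 differences were below 0, and limma adjusted p-values were between 0.962 and 0.986.

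Chka read 776 and 1685 in GFP and 1285 and 493 in Ad-lipin, a log2 difference of -0.52 ± 0.76 that was 0.17 without Ad-lipin replicate 2 and -1.21 without Ad-lipin replicate 1. Chkb read 1145 in GFP replicate 1 and 912 and 1425 in the Ad-lipin arrays but 63.1 in GFP replicate 2, which lay under the floor. Its difference of 1.62 ± 1.09 was -0.0072 without that array. Chpt1 read 10377 and 11391 in GFP and 12139 and 8160 in Ad-lipin, a difference of -0.13 ± 0.33. Its 3 dimmer probe sets gave -0.54, -0.73 and -0.87, and on that at -0.73 (4326 and 3639 in GFP, 2699 and 2135 in Ad-lipin) the groups did not overlap. Cept1, which serves both the choline and the ethanolamine route, read 4771 and 3255 in GFP and 4419 and 4151 in Ad-lipin, a difference of 0.12 ± 0.38.

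Pemt makes phosphatidylcholine by methylating phosphatidylethanolamine, a route that is active in liver. It read 11117 in GFP replicate 1, 24908 in GFP replicate 2, 21779 in Ad-lipin replicate 1 and 19514 in Ad-lipin replicate 2. The Ad-lipin arrays lay between the GFP arrays, with a log2 difference of 0.31 ± 0.38. Leaving out GFP replicate 2 gave 0.89, and leaving out GFP replicate 1 gave -0.27.

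In the CDP-ethanolamine route, Pcyt2, which sets the pace by making CDP-ethanolamine, had the lowest unadjusted p of all members. It read 4662 in GFP replicate 1, 1401 in GFP replicate 2, 5350 in Ad-lipin replicate 1 and 6215 in Ad-lipin replicate 2. Both Ad-lipin arrays exceeded both GFP arrays, but most of the gap came from GFP replicate 2. The log2 difference was 1.17 ± 0.49, or 2.26-fold (limma adjusted p = 0.962), and 0.31 without GFP replicate 2, the array with the actin ratio of 4.22. Without GFP replicate 1 it was 2.04. The part of RNA quality, or of the hepatocyte share, in this difference was not tested. Etnk1, the ethanolamine kinase before it, read 3062 and 2787 in GFP and 2910 and 4371 in Ad-lipin, a difference of 0.29 ± 0.40 that was -0.0057 without Ad-lipin replicate 2. Its 2 other probe sets were too dim to test.

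Phosphatidylserine is made from other phospholipids by exchange of the head group. Ptdss1, which uses phosphatidylcholine, read 3144 and 2692 in GFP and 2096 and 3389 in Ad-lipin, a log2 difference of -0.13 ± 0.43. Its other probe sets gave 0.27 and 0.80. Ptdss2, which uses phosphatidylethanolamine, was dim, at 299.5 and 328 in GFP and 1125 and 548 in Ad-lipin on its brightest probe set. The groups did not overlap there, and the difference was 1.33 ± 1.14, or 2.51-fold (limma adjusted p = 0.962). Without each array in turn the difference lay between 0.81 and 1.84, and its sign could not turn because the groups did not overlap. The other tested Ptdss2 probe set read 598 and 326 in GFP and 435 and 484 in Ad-lipin, a difference of 0.055 ± 1.24, and 5 more were too dim to test.

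Cds2 makes CDP-diacylglycerol from phosphatidate and so draws on the same substrate as the lipins. Its brightest probe set (1438957_x_at) read 5391 and 6793 in GFP and 5023 and 4361 in Ad-lipin, with both Ad-lipin arrays lower and a log2 difference of -0.37 ± 0.35. A second probe set (1434256_s_at) went the other way without overlap, at 1131 and 1425 in GFP and 1490 and 2367 in Ad-lipin (0.57 ± 0.54). The remaining tested probe sets gave 0.45 and -0.62. The brightest has a suffix that marks probes shared with other transcripts, and without such probe sets the Cds2 value was 0.45. Suffixes of this kind (_s_at or _x_at) are also carried by the only Dgat1 probe set and by the Gpd1 probe set at -0.50, among others.

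Lpcat3 reacylates lysophospholipids with polyunsaturated fatty acids and is the main remodelling enzyme of this kind in liver. It read 5693 in GFP replicate 1, 1095 in GFP replicate 2, and 4278 and 4391 in Ad-lipin replicates 1 and 2. The Ad-lipin arrays were close together and lay between the GFP arrays, and the log2 difference of 0.80 ± 0.59 was -0.39 without GFP replicate 2.

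The GFP arrays differed most on a few members. Pcyt2, Lpcat3 and Chkb were each lowest by a wide margin in GFP replicate 2, and that array was the lowest of the 4 for 8 members and the highest for 4. Over all genes tested it was lowest for 27.3% and highest for 34.2%. Ad-lipin replicate 2 was the highest array for 9 members and the lowest for 5, where over all genes it was highest for 21.1%. The median member stood at 0.12 and -0.17 from the mean of the arrays in GFP replicates 1 and 2, and at 0.03 and 0.19 in Ad-lipin replicates 1 and 2. Other low arrays were GFP replicate 1 for Pemt, Dgat2 and Agpat3.

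**Figure D3:**
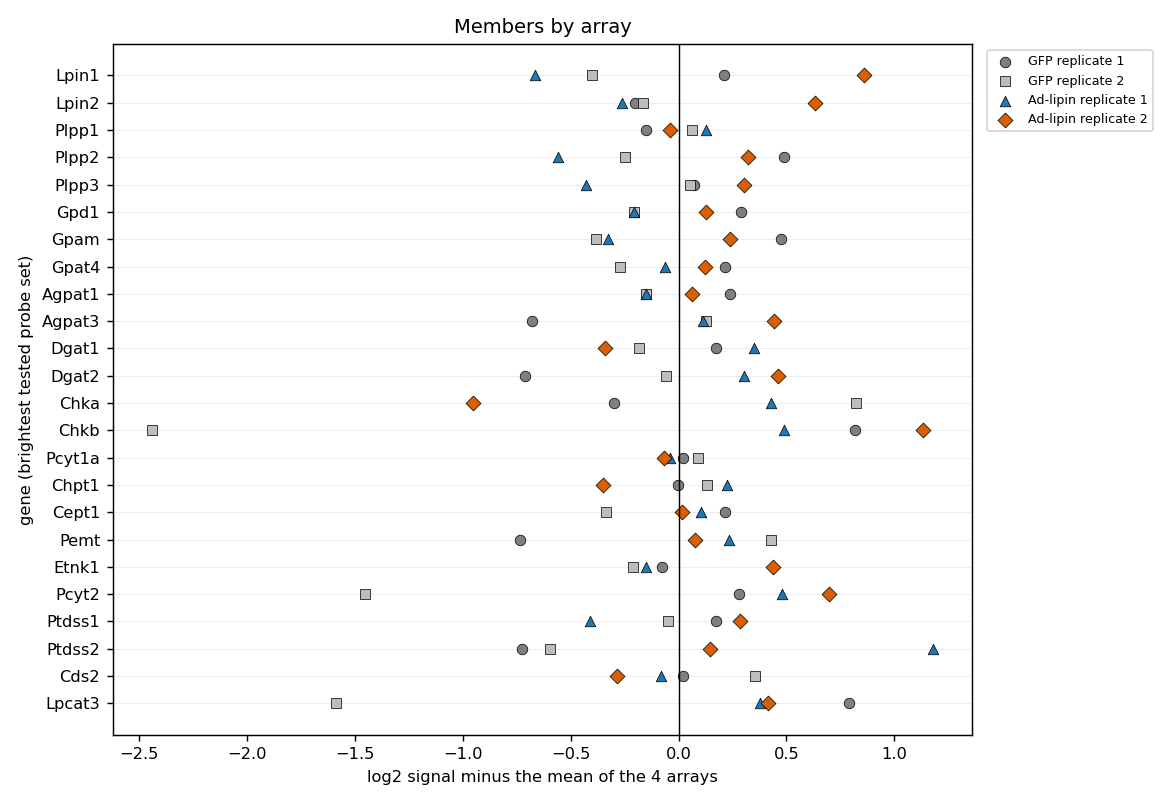
Signal of each tested member on each array (points), as log2 minus the mean of the 4 arrays (horizontal axis), after low signals were raised to the floor. GFP replicate 2 lies far to the left for Chkb, Pcyt2 and Lpcat3, at signals of 63.1, 1401 and 1095, and Ad-lipin replicate 2 is the rightmost of the 4 points for Lpin1 and for Lpin2.

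When each array was left out in turn, 6 of the 24 members kept the sign of their difference in all 4 fits, namely Dgat2, Pcyt2, Ptdss2 and Agpat3 above 0 and Pcyt1a and Cds2 below 0. That is 25.0%, against 47.0% of all genes tested. In all of these members but Agpat3 the groups did not overlap, and for such genes the sign cannot turn. Agpat3 ran from 0.15 to 0.96, Pcyt1a from -0.14 to -0.074 and Cds2 from -0.54 to -0.20. The other 18 members had a value on the other side of 0 in at least 1 fit.

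**Figure D4:**
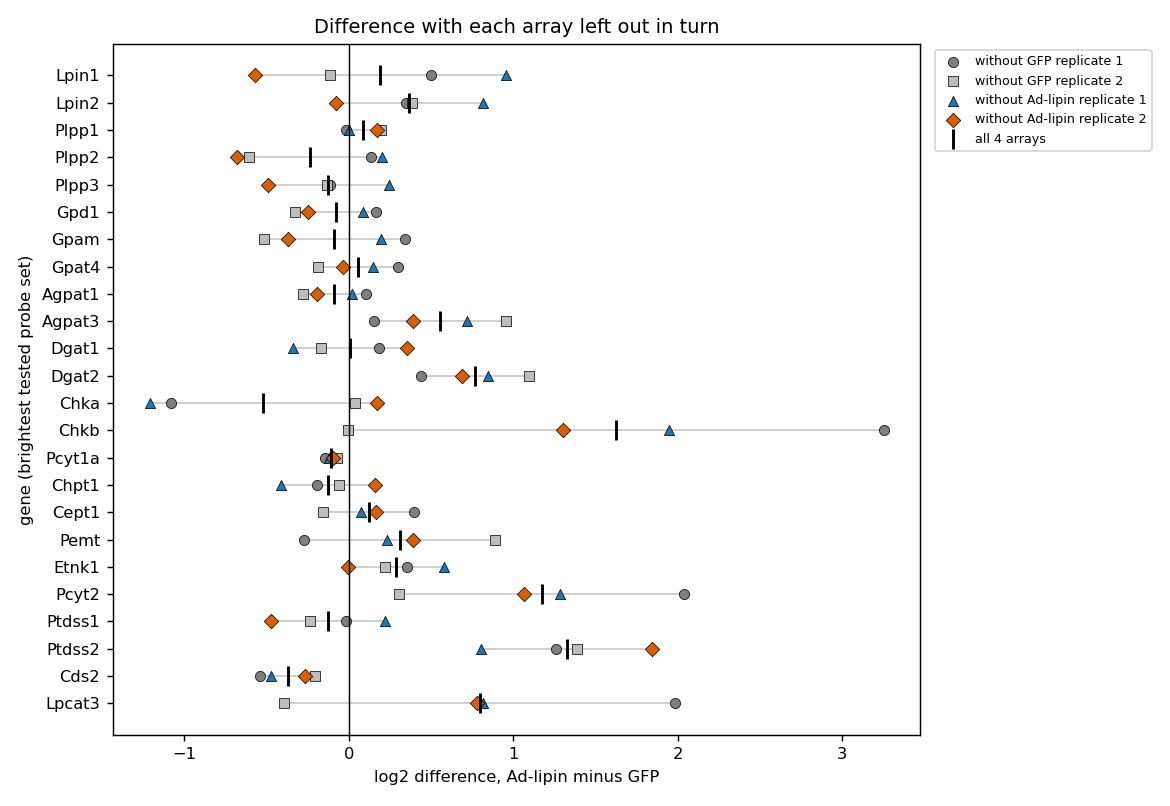
Log2 difference, Ad-lipin minus GFP, of each tested member with all arrays (black bars) and with each array left out (points, marked by the array left out). Only Agpat3, Dgat2, Pcyt1a, Pcyt2, Ptdss2 and Cds2 stay on the same side of 0 throughout, and Chkb reaches from -0.0072 to 3.25.

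Probe sets of the same member were compared where several were tested. Of 14 such members, 9 had all of them on the same side of 0, and Lpin2, Plpp3, Gpat4, Ptdss1 and Cds2 did not. The share with a single sign was 64.3%, compared with 45.0% of the 2628 genes with several tested probe sets. Over the 46 member probe sets, 24 lay above 0 and 22 below. The Ad-lipin arrays were both above the GFP arrays on 6 of them (background over probe sets 17.1%) and both below on 7 (background 15.9%).

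A wider list of glycerolipid genes, 46 in all, was set beside the members. Of these, 35 had a probe set and 30 were tested; 0 passed at a limma adjusted p under 0.05, and 0 had an unadjusted p under 0.05. Their median log2 difference was 0.11, 17 lay above 0, and both Ad-lipin arrays were above both GFP arrays in 7 (background 17.3% of all genes) and below in 5 (background 16.0%). Those with the smallest p were Lpgat1, an acyltransferase of lysophospholipids (5414 and 9465 in GFP, 3472 and 4960 in Ad-lipin; log2 difference -0.79 ± 0.38), and Pla2g15, a lysosomal phospholipase (774 and 173 in GFP, 1398 and 1276 in Ad-lipin; 1.87 ± 0.94). Dgka, a kinase that returns diacylglycerol to phosphatidate, read 981.2 and 981.5 in GFP and 420 and 149 in Ad-lipin, a log2 difference of -1.97 ± 1.16. Pld3, a member of the phospholipase D family, read 1060 and 1451 in GFP and 1264 and 94.1 in Ad-lipin (-1.67 ± 1.06), and its value rests on Ad-lipin replicate 2, without which it was 0.027. Leaving out each array in turn moved Lpgat1 from -1.19 when GFP replicate 1 was dropped to -0.38 when GFP replicate 2 was. It moved Pla2g15 from 0.79 when GFP replicate 2 was dropped to 2.95 when GFP replicate 1 was. Dgka ran from -2.72 (without Ad-lipin replicate 1) to -1.22 (without Ad-lipin replicate 2). The adjusted p was 0.962 for these 4 genes.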

How the data were processed

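The 4 arrays were grouped by their titles, 2 GFP and 2 Ad-lipin. The deposited values are linear intensity values. The submitters' processing notes name MAS5, and its version, scaling target and detection calls were not used here. No further normalization was applied. Without the 64 control probe sets, any signal below the 20th percentile (119.5) was set to that level before log2, which understates differences of dim genes. Probe sets whose mean log2 signal reached the 40th percentile of such means (13576) were tested with limma 3.58.1 in R 4.3.3 (lmFit and eBayes with an intensity trend, 12.7 prior and 2 residual degrees of freedom), two-sided, and p-values were adjusted over all of them by Benjamini-Hochberg. The fit was tested on simulated data with independent noise, of equal spread on every array, and with planted changes larger than most member differences. No simulated array stood apart as GFP replicate 2 did. That run therefore does not show what size of member difference could be found here. Errors are limma's SE unless stated. This SE draws the scatter of each probe set toward that of probe sets of similar brightness. It can therefore be much larger or smaller than the replicates of that probe set alone would give. The number of arrays limits the precision.

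Symbols came from the platform annotation, updated through Entrez identifiers to RefSeq (GRCm38.p6, names and promoter windows only); 20351 of the 20380 probe sets with a single symbol matched. Motifs were searched in the 250 bases before each listed start.

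The members and gene lists were chosen with earlier results of these data known. Signals are given for all lipin probe sets, for 10 branch-point enzymes except Agpat2, which had no probe set, and for the up to 12 other members with the smallest p. They are also given for the 4 other pathway genes with the smallest p. Further probe sets and Gpat4 were named after their values were seen. Alternatives tried were median centring, quantile normalization, a lower floor, no filter or a stricter one, eBayes without a trend or robust, a block for the replicate number, each array left out, and other rules for a gene's probe sets.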

Additional observations from a re-analysis of the deposited data

How the results depend on the processing

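Of the alternative fits on all 4 arrays, each called 0 probe sets except that with the replicate number as a block, which called 52 (34 higher and 18 lower, 0 of them members). The prior degrees of freedom were infinite in that fit, and also in the fits without Ad-lipin replicate 1 and without Ad-lipin replicate 2. The replicate numbers are not stated to pair the arrays. The replicate differences of the groups correlated at 0.028 over probe sets, which cannot settle whether they were paired. Leaving out 1 array gave 0 to 13 calls, with 13 (7 higher, 6 lower) without Ad-lipin replicate 1, 3 without Ad-lipin replicate 2, 2 without GFP replicate 2 and 0 without GFP replicate 1. Members with both Ad-lipin arrays above both GFP arrays numbered 6 to 10 with an array left out, and members with both below 4 to 9 (25.0% to 41.7% and 16.7% to 37.5% of members, against 30.1% to 36.2% and 30.0% to 39.9% of all genes), where fewer arrays make overlap rarer. When a gene's probe sets were averaged these counts were 5 and 4, and the count below was 1 with median centring, with quantile normalization and without probe sets ending in _s_at or _x_at. Directions turned with the mean of the probe sets for Lpin2 (-0.032), Plpp3 (0.019), Gpat4 (-1.37), Ptdss1 (0.32) and Cds2 (0.0069), without the _s_at and _x_at probe sets for Cds2 (0.45), and with quantile normalization for Agpat1 (0.00031); the cause was not tested. Robust variance moderation, no intensity trend and the filters leave the log2 difference of a probe set unchanged, so they could turn no direction. Median centring moves every difference by the same small amount (Lpin1 from 0.19 to 0.22). Neither it nor the lower floor turned a direction among the 24 members' brightest probe sets and the other lipin probe sets. At the stricter filter Chkb and Ptdss2 were not tested, and without the _s_at and _x_at probe sets Dgat1 had no value. For the other pathway genes, values under these settings were read out only with median centring. With each array left out in turn, the log2 difference ran from -0.57 to 0.95 for Lpin1, -0.080 to 0.82 for Lpin2, -0.48 to 1.19 for its probe set 1452837_at, -0.016 to 0.19 for Plpp1, -0.68 to 0.20 for Plpp2 and -0.49 to 0.24 for Plpp3. It ran from -0.33 to 0.17 for Gpd1, -0.52 to 0.34 for Gpam, -0.19 to 0.30 for Gpat4, -0.28 to 0.11 for Agpat1 and -0.34 to 0.36 for Dgat1. For the choline and ethanolamine routes it ran from -1.21 to 0.17 for Chka, -0.0072 to 3.25 for Chkb, -0.41 to 0.16 for Chpt1, -0.16 to 0.40 for Cept1, -0.27 to 0.89 for Pemt and -0.0057 to 0.58 for Etnk1. For Ptdss1 it ran from -0.47 to 0.22 and for Lpcat3 from -0.39 to 1.99. The lowest adjusted p over all probe sets was 0.66, and member differences of 2.26-fold (Pcyt2), 2.51-fold (Ptdss2) and 6.93-fold (a Gpat4 probe set) did not pass, and signals under 119.5 have no order.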
